A study of Mus musculus with 2 samples.

Results

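The miR-379 to miR-410 cluster is a run of 37 miRNA genes on mouse chromosome 12, read from the plus strand between 109709060 (the start of Mir379) and 109747960 (the end of Mir3072) on mm10, a span of 38901 bases. Its members were chosen by symbol and position in the GENCODE M21 annotation. No measured level entered the rule, though earlier results of these data were known. All 37 were found among the 2202 miRNA genes counted in the series. The left cerebral cortex was taken from 2 B6CASTF1/J females aged 2 months, and RNA shorter than 30 nucleotides was sequenced with 1 library per animal. The mice are F1 hybrids between a C57BL background and CAST, an inbred line of wild origin. No treatment, genotype or age was compared. The animals are called animal 1 and animal 2 after the replicate numbers in the labels. The labels number the females and their tissue samples separately but list a single donor identifier for both, and no source used here says what that identifier stands for. With 1 library per animal, an effect of the animal and an effect of its library preparation cannot be told apart.

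The cluster lies in the imprinted Dlk1-Dio3 domain, whose noncoding RNAs Meg3, Rian and Mirg and their miRNAs are transcribed from the maternally inherited chromosome. Its hairpins are cut from long precursor transcripts, each giving a 5p and a 3p arm of which 1 usually prevails, and the arm guides repression of messenger RNAs through its seed, bases 2 to 8. In neurons the cluster is known for activity-dependent transcription through the factor Mef2 and for effects on dendrites and synapses. miR-134, its best studied product, limits dendritic spine size through the kinase Limk1. The counts analysed here are per hairpin gene, so arms were not separated, and parental alleles were not separated either.

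Many arms of the cluster are close relatives in sequence. RefSeq sequences (GRCm38.p6) were matched for 70 arms of the 37 members, which carried 65 distinct seeds. The clearest group of related 5p arms surrounds miR-379-5p, and it is shown because its members spanned nearly the whole range of levels in the cluster. Seeds are in capitals and sequences run 5′ to 3′.
miR-379-5p: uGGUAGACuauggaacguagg
miR-1193-5p: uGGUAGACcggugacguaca
miR-411-5p: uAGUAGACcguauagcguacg
miR-758-5p: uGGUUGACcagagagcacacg
miR-1197-5p: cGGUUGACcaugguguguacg
miR-412-5p: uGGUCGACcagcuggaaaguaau
miR-379-5p and miR-1193-5p share the seed GGUAGAC. From miR-379-5p to miR-411-5p the seed differs by G2A, from miR-379-5p to miR-758-5p and miR-1197-5p by A5U, and to miR-412-5p by A5C, with positions counted from 1 at the 5′ end of the mature arm and the base of miR-379-5p first.

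A further set of seeds was found on 3p arms. miR-379-3p and miR-411-3p share AUGUAAC, which differs by G4A from the seed of miR-410-3p. miR-485-3p and miR-154-3p differ by G2A, miR-154-3p and miR-369-3p by C4A, miR-300-3p and miR-381-3p by G4A, and miR-376b-3p and miR-376a-3p by A4G, each with the base of the first-named arm first.
miR-379-3p: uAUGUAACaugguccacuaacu
miR-411-3p: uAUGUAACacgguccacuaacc
miR-410-3p: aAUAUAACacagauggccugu
miR-485-3p: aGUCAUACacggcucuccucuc
miR-154-3p: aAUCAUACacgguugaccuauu
miR-369-3p: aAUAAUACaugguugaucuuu
miR-300-3p: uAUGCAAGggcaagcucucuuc
miR-381-3p: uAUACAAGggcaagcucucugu
miR-376b-3p: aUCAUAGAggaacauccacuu
miR-376a-3p: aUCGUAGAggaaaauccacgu
In all, 5 seeds were shared by 2 members each, and no seed was shared by 3 or more. The remaining shared seeds were GGUUGAC of miR-758-5p and miR-1197-5p, GGUUGUC of miR-494-5p and miR-410-5p, and UGGAUAU of miR-376c-5p and miR-376b-5p. Abundant members outside these groups are represented by the arms below.
miR-382-5p: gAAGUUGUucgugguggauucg
miR-541-5p: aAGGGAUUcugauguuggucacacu
miR-487b-5p: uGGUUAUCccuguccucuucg
miR-134-5p: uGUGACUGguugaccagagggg

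Nearly the whole cluster was present in the cortex. Of 37 members, 35 reached 2 CPM (counts scaled to a library total of 1000000) in both animals, whereas 18.8% of all 2202 genes did. Mir654 had no count in either animal, which allows a level of up to 0.679 CPM in animal 1 and up to 1.32 CPM in animal 2 (3 counts). Mir1197 had 0 counts in animal 1 and 2 counts in animal 2, or 0.877 CPM. Limits and intervals given here take in the error of counting alone, since amplified reads without molecular tags need not be separate molecules. Levels were compared between genes without a length term, on the assumption that a read of RNA this short comes from a mature arm; read lengths and positions within the hairpin were not analysed here. Divided by hairpin length instead, 11 of the 12 most abundant members stayed among the 12 highest.

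The cluster made up 5.05% of the counts of animal 1, with an exact Clopper-Pearson 95% interval from 5.03 to 5.07%. It made up 5.45% in animal 2, with an interval from 5.42 to 5.48%. The mean share was 5.25% ± 0.283 (SD, n = 2). The gap between the animals exceeded counting error, and it came to -0.11 on the log2 scale (animal 1 over animal 2, counting interval -0.12 to -0.10). The gap was no longer seen without Mir487b. Leaving this member out was decided once its values were known. The cluster then held 4.733% of the counts of animal 1 and 4.734% of those of animal 2. The log2 ratio was -0.00017, inside a counting interval of -0.01 to 0.01. Other members still differed in both directions, such as Mir411 (5933 and 7631 CPM) and Mir409 (2483 and 1401 CPM), and offset each other in the sum. The ratio without Mir487b rests on library totals and was not recomputed with other scaling. TMM scaling moved the ratio of the whole cluster from -0.11 to -0.086, so the near equality without Mir487b is given for library totals only.

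Levels inside the cluster were very uneven as counted, although its hairpins are thought to come from shared precursors. How evenly library preparation captured different sequences was not measured, so ratios between members are ratios of counts. On average over both animals 13 members reached 1000 CPM, against 4.54% of all genes, 15 lay between 100 and 1000 CPM, 4 between 20 and 100 CPM and 3 lower but detected. The highest detected member, Mir411, had 2895 times the level of the lowest, Mir544. The 5 most abundant members held 52.1% of the cluster's counts in animal 1 and 57.3% in animal 2. The median member had 219 CPM in animal 1, against 282 CPM in animal 2, while the median over all miRNA genes was 0 in both.

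**Figure D1:**
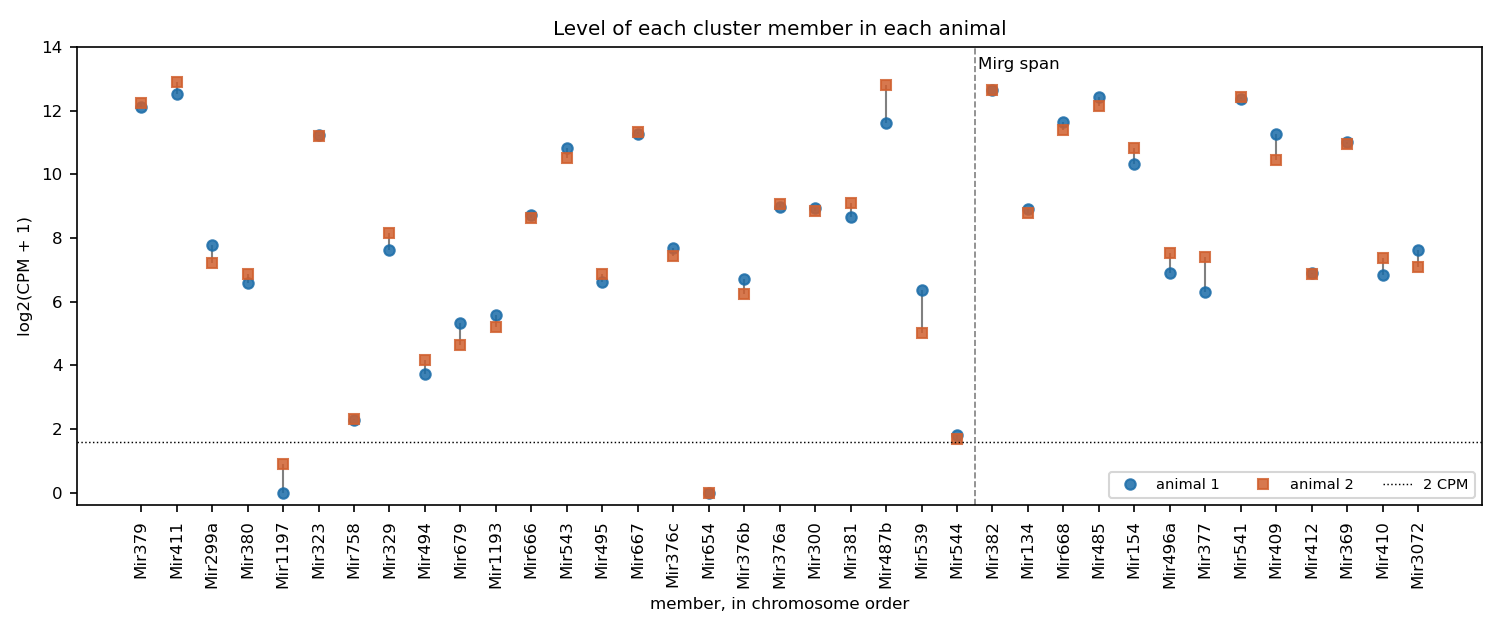
Level of each of the 37 members as log2(CPM + 1) on the vertical axis, in chromosome order on the horizontal axis, with circles for animal 1, squares for animal 2, a grey line joining the 2 values of a member, a dotted line at 2 CPM and a dashed line where the annotated span of Mirg begins. Mir654 and Mir1197 lie below the dotted line in both animals, and the animals' values for most members nearly coincide on a scale where neighbouring members are several units apart.

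The most abundant members were Mir411, Mir382, Mir541, Mir487b, Mir485 and Mir379. Mir411 had 5933 CPM in animal 1 against 7631 CPM in animal 2. Mir382 had 6398 and 6394 CPM. Mir541 had 5307 and 5526 CPM. Mir382 and Mir541 thus differed little between the animals, while Mir411 was higher in animal 2. Mir487b had 3150 CPM in animal 1 against 7147 CPM in animal 2, which placed it seventh in the cluster in animal 1 and next to the top in animal 2. Mir485, whose product targets the synaptic vesicle protein SV2A, had 5520 and 4545 CPM. Mir379, the first hairpin of the cluster, had 4460 and 4788 CPM. The means of the 6 ran from 6782 CPM for Mir411 to 4624 CPM for Mir379. None of the members was among the 25 most abundant miRNA genes of the cortex, 6 were among the 50 most abundant and 13 among the 100 most abundant.

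The next members by level were Mir668, Mir667, Mir323, Mir369, Mir409 and Mir543. Mir668 had 3179 and 2696 CPM, Mir667 2474 and 2592 CPM, and Mir323 2385 and 2357 CPM. Mir369 and Mir543 belong to the members known to lower N-cadherin during the birth of cortical neurons. Mir369 had 2078 and 1993 CPM, and Mir543 had 1808 and 1457 CPM. Mir409 had 2483 CPM in animal 1 against 1401 CPM in animal 2. Of these 6, Mir409 was the farthest apart between the animals. Mir154, which gives its name to the family of related 3p seeds, completed the 13 members at 1000 CPM or more with 1288 and 1801 CPM.

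Members known from work on dendrites and synapses stood at various levels. Mir134 had 481 CPM in animal 1 against 444 CPM in animal 2, place 17 of 37. Mir329, which acts with miR-134 downstream of Mef2 in dendrite growth, had 194 and 282 CPM. Mir381 and Mir300, whose 3p seeds differ by 1 base, had 406 and 547 CPM and 492 and 458 CPM. Mir376a, whose transcripts are a known substrate of A-to-I RNA editing in brain, had 500 and 530 CPM, above its relatives Mir376c (203 and 173 CPM) and Mir376b (103 and 73.7 CPM). Mir134, Mir329, Mir376a and the genes of the other paragraphs that stand outside the naming rule were picked for their known roles or sequence after their values were seen.

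The order of levels held between the animals at a coarse scale and not between close neighbours. Of the 595 possible pairings of detected members, 93.1% had the same order in both animals. Of the 34 neighbouring ranks, 17 had the same order in both animals and 17 did not. Across the 35 detected members log2(CPM + 1) in the animals had a Pearson r of 0.986 and a Spearman rho of 0.965, against 0.981 and 0.975 across all 415 detected genes. These are descriptions across genes that share 2 libraries.

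**Figure D2:**
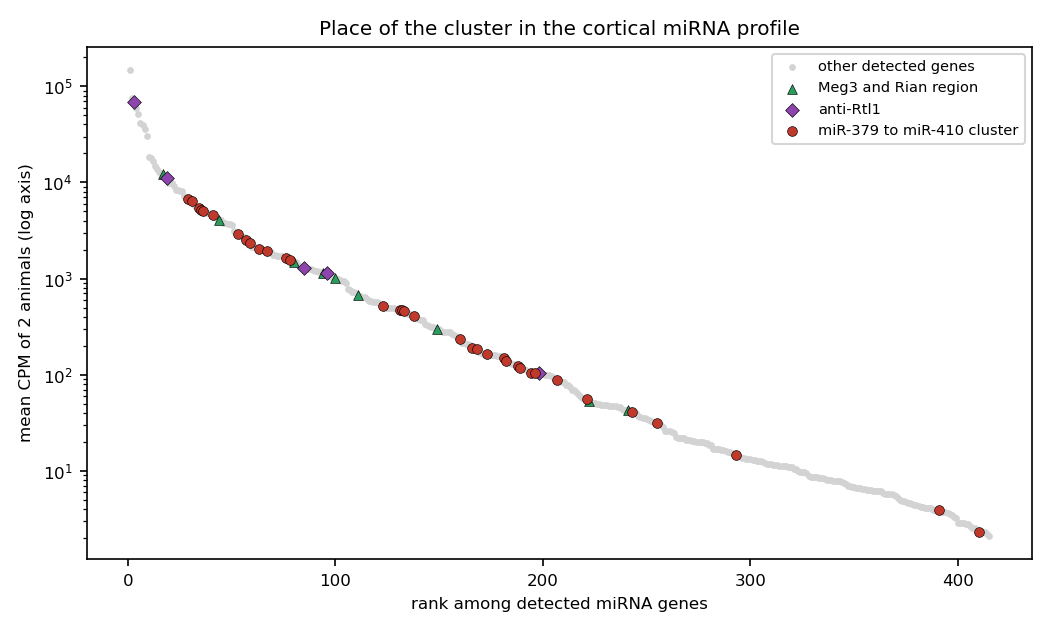
Mean CPM of the 2 animals on a log axis against rank for the 415 detected miRNA genes, with circles for detected cluster members, triangles for the Meg3 and Rian region, diamonds for the anti-Rtl1 miRNAs and grey points for all others. Cluster members run from 6782 CPM down to 2.34 CPM and none reaches the level of Mir127, the highest diamond.

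Members with related seeds could differ widely in level or lie close together. Mir300 and Mir381, with related 3p seeds, had mean levels of 475 and 476 CPM. The miR-379-5p group was picked for its wide range, so its spread does not describe related seeds in general. In the miR-379-5p group, Mir379 and Mir411 were among the leading members, whereas Mir1193, with the same 5p seed as Mir379, had 46.4 CPM in animal 1 against 35.5 CPM in animal 2. Mir412 had 119 and 115 CPM, Mir758 had 3.85 and 3.95 CPM (17 and 9 counts), and Mir1197 was not detected. Genes carrying the seed AUGUAAC, Mir379 and Mir411 together, held 20.6% of cluster counts in animal 1 and 22.8% in animal 2, the largest of the 5 shared-seed groups. Each such sum is over whole hairpins, with both arms counted. The groups of GGUUGUC (Mir494 and Mir410) and UGGAUAU (Mir376c and Mir376b) held under 1% each, at 0.247 and 0.332% and at 0.606 and 0.453%.

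Several seeds also occur in miRNAs that are no members. Among the matched arms, 12 had such a seed. miR-299a-3p shares its seed with miR-299b-3p of the same locus, and miR-496a-5p with miR-453, whose gene lies inside the interval. The other arms include miR-329-3p, which shares ACACACC with miR-362-3p, and miR-410-3p, which shares AUAUAAC with miR-344d-3p and miR-344e-3p. They also include miR-1193-3p, which shares AGGUCAC with miR-370-5p of the neighbouring Rian region. As letters, the hairpins shared short stretches that are rare elsewhere. UACUUG, searched on the strand of the hairpin since these are RNA sequences, stood in 9 of 37 members (24.3%) and in 2.32% of all 2202 hairpins. CAGUAUC stood in 6 members (16.2%) and in 0.681% of all hairpins, and GGUCCAC in 5 members (13.5%) and 0.363%. None of the 18 hairpins of the Meg3 and Rian region and anti-Rtl1 lists held any of these 3, which were picked after the sequences were seen. Mir411 held all 3. Other stretches searched were less particular to the cluster or less common in it. The first 5 bases of the seed shared by miR-758-5p and miR-1197-5p stood in 11 members (29.7%) and in 7.27% of all hairpins. They also stood in 2 hairpins of the comparison lists. The seed of miR-154-3p stood in 2 member hairpins (5.41%), in 0.227% of all hairpins and in none of those lists.

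Long identical stretches bear on counting, because a separate entry of each table holds reads that mapped to several places (37.4% of reads in animal 1 and 25.5% in animal 2), and no source used here says whether genes were credited with them. Stretches of 18 or more bases identical to another miRNA hairpin were found in 6 members: Mir411, Mir299a, Mir758, Mir376c, Mir376b and Mir487b. Their counts are treated as uncertain levels. In Mir411 and Mir758 the stretch takes in only part of the 3p arm. In Mir487b it lies outside miR-487b-5p, the only arm matched for this member. No 3p arm of Mir487b was matched, so an overlap of the stretch with that arm could not be read. How many reads of these members mapped to several places was not measured. The longest stretch, 31 bases shown in capitals, joins Mir376c (chromosome 12, 109722718 to 109722803) and Mir376b (109723458 to 109723539) and covers most of their 5p arms.
Mir376c: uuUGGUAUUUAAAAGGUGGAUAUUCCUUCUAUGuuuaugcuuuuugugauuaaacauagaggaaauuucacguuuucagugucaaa
Mir376b: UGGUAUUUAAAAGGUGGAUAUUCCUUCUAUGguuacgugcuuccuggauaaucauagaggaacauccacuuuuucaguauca
Mir299a (109710638 to 109710700) is nearly its own reverse complement, and the annotation places Mir299b on the opposite strand of the same locus. The 21 shared bases in capitals include most of the 5p arm of Mir299a.
Mir299a: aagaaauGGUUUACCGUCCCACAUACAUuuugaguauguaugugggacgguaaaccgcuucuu
Mir299b: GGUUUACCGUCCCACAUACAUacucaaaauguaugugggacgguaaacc
Mir487b (109727333 to 109727414), the member with the widest gap in CPM between the animals, shares 20 bases at the end of its hairpin with Mir376b.
Mir487b: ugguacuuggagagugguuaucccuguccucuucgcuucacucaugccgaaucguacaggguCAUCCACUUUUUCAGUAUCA
Mir376b: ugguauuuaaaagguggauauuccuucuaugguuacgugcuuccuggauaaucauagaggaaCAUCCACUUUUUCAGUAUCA
The 6 members held 0.961% of all counts in animal 1 and 1.52% in animal 2, a difference carried by Mir411 and Mir487b. The other 31 members held 4.09% and 3.93%. The part of shared sequence in the difference at Mir487b was not tested.

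Where a miRNA gene lies on the opposite strand, only counts by strand showed the member. Mir299a, Mir380, Mir376a, Mir539 and Mir409 each overlap a minus-strand gene (Mir299b, Gm25750, Gm25252, Gm44322 and Gm24321), and all 5 had 0 counts in the unstranded column in both animals. On their own strand they had 14911 counts in animal 1 and 5075 in animal 2. Counts on the opposite strand were 0 at all 37 members in both animals, so none of the 5 minus-strand genes was seen. For Mir299b this does not show absence. Both its arms lie whole within the sequences of the Mir299a arms, so their reads fit either strand of the locus. Of 2 further plus-strand miRNA genes annotated inside the interval, Mir453 and Gm27379, neither had a count.

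Abundant and scarce hairpins lay side by side at several places, and elsewhere neighbours had like levels. Hairpins were separated by a median of 556 bases, from 20 to 4368, and 22 of the 36 gaps were under 1000 bases. Members adjacent on the chromosome differed by a median of 3.39 in log2 level, against a median of 3.22 over all pairings of detected members. Mir382 (109733771 to 109733846) and Mir134 (109734139 to 109734209), both in exons of Mirg, had mean levels of 6396 and 462 CPM. Mir487b and Mir539 (109728129 to 109728202), the hairpins on either side of a gap of 714 bases, had 5148 and 55.9 CPM. The neighbours Mir376a, Mir300 and Mir381 had mean levels of 515, 475 and 476 CPM. Spearman's rho of level with position was 0.11 over the 35 detected members, and with the GC content of the hairpin 0.15. Hairpin GC ran from 29.1 to 72.3% with a median of 43.4%, below the median of 52.4% over all detected genes.

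**Figure D3:**
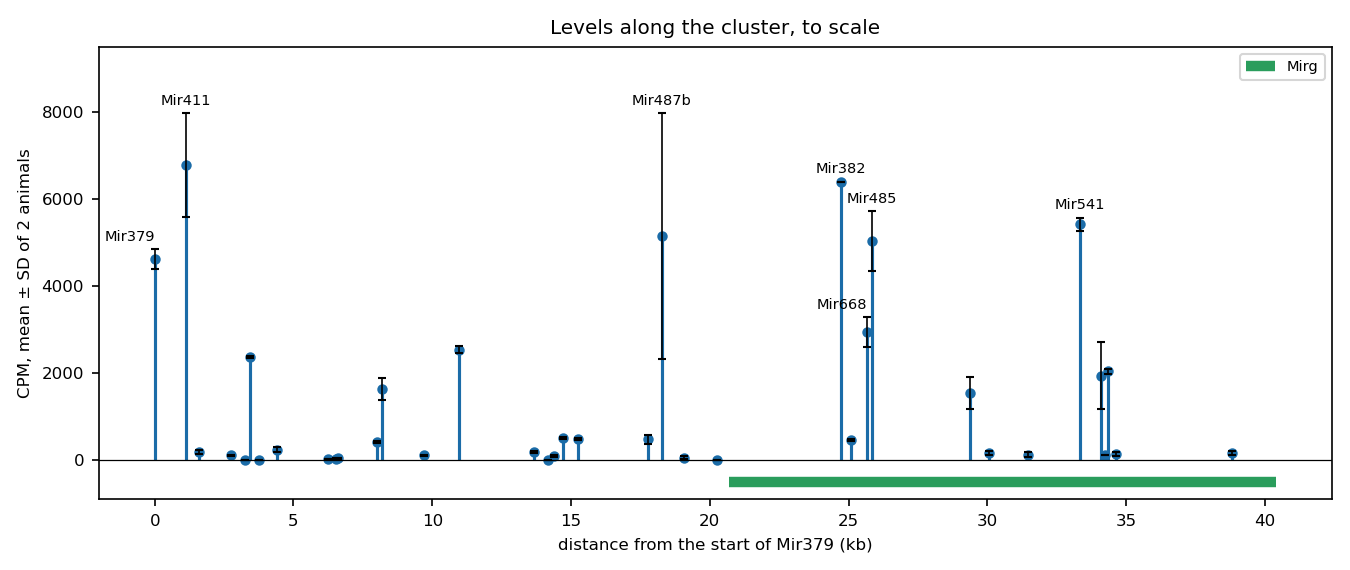
Mean CPM (points and stems) with the SD of the 2 animals (black bars) against distance from the start of Mir379 in kb, to scale, with the annotated span of Mirg as a green bar below 0. High stems stand at both ends of the cluster and in its middle, next to members near 0, and the longest SD bar is that of Mir487b.

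The annotated noncoding transcript Mirg covers the later part of the cluster, from 109729764 to 109749460. All 13 members inside it were detected, 9 of them overlapping its exons and 4 in its introns. The other 24 members lie before its annotated start with no annotated host on their strand, and both undetected members, Mir1197 and Mir654, are among them, as are the scarce Mir544, Mir758 and Mir494. Within Mirg the median member had 1288 and 1401 CPM in animals 1 and 2, and the median member before it 198 and 161 CPM. The summed levels were close, at 2.74% and 2.56% of all counts within Mirg and 2.31% and 2.89% before it. The segments changed order between the animals, and without Mir487b the members before Mirg held 2.00% and 2.18%.

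Single members differed between the animals in both directions. A gene was taken to lie outside counting error where the share of its 2 counts that fell in animal 1 had an exact 95% Clopper-Pearson interval that excluded the share expected from the library totals. Of the 35 detected members, 27 lay outside counting error, where 56.6% of the 415 detected genes did. Detected members had a median of 408 CPM on average over both animals, against 57.2 CPM for detected genes outside the cluster, and the share of genes outside counting error rose with the level. At a mean of 2 to 20 CPM, 0 of 3 members and 20.0% of all genes lay outside, and at 20 to 100 CPM 4 of 4 members and 49.3% of all genes. At 100 to 1000 CPM, 12 of 15 members and 80.0% of all genes lay outside, and at 1000 to 10000 CPM 11 of 13 members and 87.7% of all genes. Higher in animal 1 were 14 of the 35 detected members, where 27.0% of all 415 detected genes were. Higher in animal 2 were 13 of the 35, where 29.6% of all 415 were. With the deeper library of animal 1 thinned to the depth of the other, these counts were 9 and 13. The comparison is of 2 libraries and not of 2 conditions, so no p-value is given.

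Most of these differences were under 0.5 in log2, among members as among all detected genes. The median absolute log2 ratio of detected members was 0.30, against 0.32 over all detected genes, and 25 of 35 lay within 0.5, where 66.5% of all detected genes did. The median log2 ratio was 0.02 for members and -0.0029 for all detected genes. The SD of the log2 ratio was 0.51 over members, where counting error alone gives 0.193, and 0.71 over all detected genes. Outside counting error and more than 1 apart in log2 were 3 members, where 11.3% of all detected genes were.

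The members that differed most were Mir539, Mir487b and Mir377. Mir539 had 80.6 CPM in animal 1 (356 counts) and 31.1 CPM in animal 2 (71 counts), a log2 ratio of 1.34 with a counting interval of 1.00 to 1.76. Mir487b had a log2 ratio of -1.18 (-1.21 to -1.15), 2.27-fold higher in animal 2. Mir377, in an exon of Mirg, had 77.5 CPM in animal 1 against 166 CPM in animal 2, a log2 ratio of -1.09 (-1.32 to -0.89). Mir487b and Mir539 are neighbours on the chromosome and went in opposite directions.

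Among the rest, Mir409 had the higher level in animal 1, at a log2 ratio of 0.83 (0.77 to 0.88). Mir679 was also higher there, with 39.2 CPM against 24.1 CPM and a log2 ratio of 0.68 (0.25 to 1.16). Mir299a had 219 and 148 CPM, a log2 ratio of 0.56 (0.38 to 0.74). Mir496a and Mir410 were higher in animal 2. Mir496a, whose product also lowers N-cadherin, had 118 and 184 CPM, a log2 ratio of -0.64 (-0.83 to -0.46). Mir410, near the 3′ end of the cluster, had 113 and 164 CPM, a log2 ratio of -0.54 (-0.74 to -0.34). At the other extreme, Mir382 had a log2 ratio of 0.00080 with 28251 and 14576 counts, and Mir323 of 0.02, both inside counting error. Spearman's rho of the log2 ratio with position was 0.02.

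**Figure D4:**
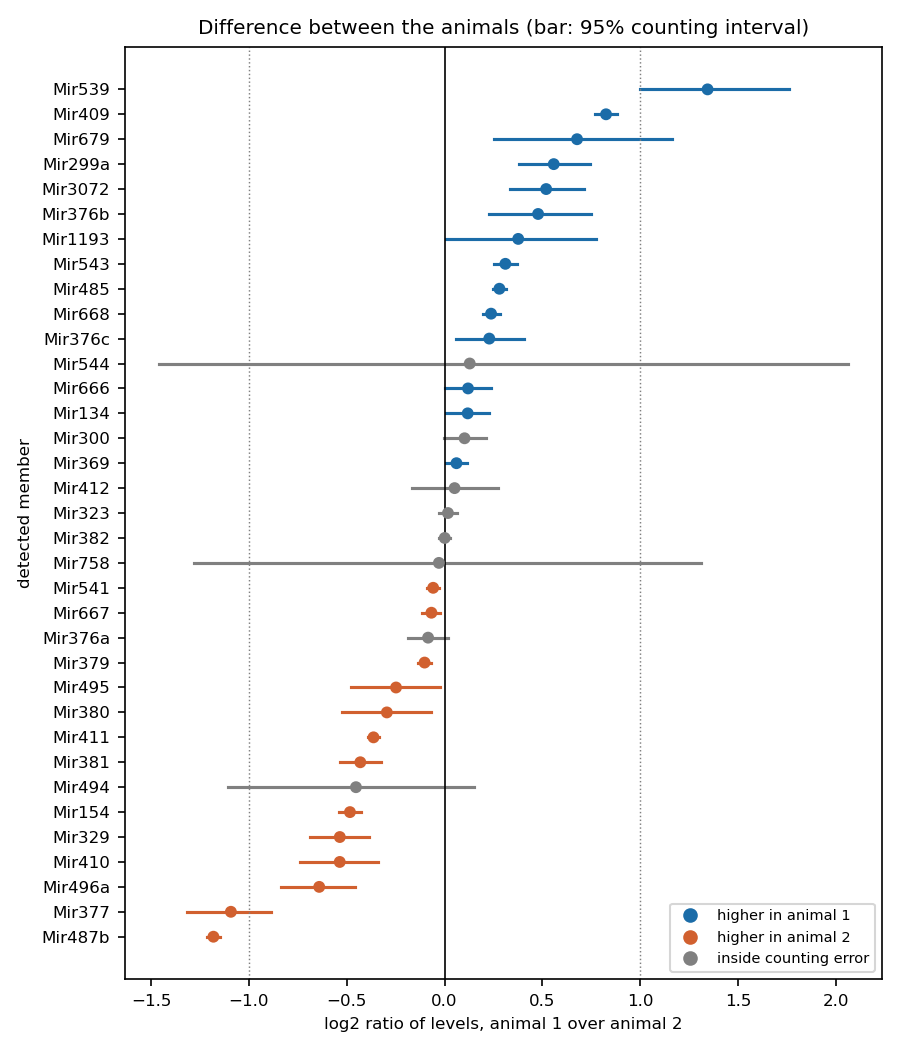
Log2 ratio of levels, animal 1 over animal 2, for the 35 detected members (points) with 95% counting intervals (bars), blue where higher in animal 1, orange where higher in animal 2, grey where inside counting error, and dotted lines at -1 and 1. Mir539, Mir487b and Mir377 lie beyond the dotted lines and the widest bars belong to Mir544, Mir758 and Mir494, the scarcest detected members.

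The other miRNAs of the domain gave a background for the cluster. The 7 listed anti-Rtl1 miRNAs, made from the strand opposite the Rtl1 gene, held 8.87% of the counts of animal 1 and 7.72% of those of animal 2 with 5 members detected. Mir127 had 74548 and 63978 CPM and Mir433 had 11775 and 10541 CPM, each above every member of the cluster. The 11 listed genes of the Meg3 and Rian region held 2.07% and 2.12% with 9 detected, led by Mir770 at 10047 and 14166 CPM and Mir370 at 5689 and 2520 CPM. The log2 ratio of summed counts was 0.20 for anti-Rtl1 (counting interval 0.19 to 0.21), -0.03 for the Meg3 and Rian region (-0.05 to -0.01) and -0.11 for the cluster. With 1 library per animal these differences between the groups were not tested.

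The libraries had 4415759 counts at miRNA genes in animal 1 and 2279562 in animal 2. Of 10 neuronal markers 6 were detected, led by Mir132, Mir128-1, Mir138-1 and Mir137, of which Mir128-1, Mir137 and Mir9-1 were higher in animal 1 and Mir132 and Mir138-1 in animal 2. The 3 copies of Mir124a had at most 11 counts each. These copies give the same mature miRNA, as do those of Mir1a and of Mir133a, and their reads could stand in the entry for several places, so low counts there do not show that the miRNA was scarce. All 3 astrocyte markers, 3 of 4 microglia and leukocyte markers and all 3 endothelium and smooth muscle markers were higher in animal 2, and 2 of 3 erythroid markers, Mir451a and Mir144, were higher in animal 1. Summed levels in animal 1 and animal 2 were 49287 and 97349 CPM for the neuron list (24898 and 17774 CPM without Mir132, which had 24389 and 79576 CPM), 8960 and 13935 CPM for astrocytes, 1642 and 3461 CPM for oligodendrocytes, 1760 and 2313 CPM for microglia and leukocytes, 11469 and 15155 CPM for vessels, 459 and 91.2 CPM for erythroid cells and 483 and 658 CPM for the choroid plexus. The liver marker Mir122 had 60.9 and 36.8 CPM, the striated muscle marker Mir206 had 23.6 and 16.2 CPM, and the 4 copies of Mir1a and Mir133a were at 0 in both. The part of these lists in the differences between the animals at Mir539, Mir487b and Mir377 was not tested. In bulk tissue, fewer cells of a type and less RNA per cell cannot be told apart.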

How the data were processed

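The authors deposited 1 table of raw read counts per miRNA gene for each library. The build mm10 and GENCODE M21 are given in the text metadata deposited with each library. No source used here names the aligner, the trimming or the read filters. Columns have no header, and their roles (unstranded, own strand, opposite strand) were read from the values. The 4 summary entries that name no gene were left out of totals. In the own-strand column reads at no gene were 6.52% in animal 1 and 4.91% in animal 2, and unmapped reads 23.4% and 47.1%. Multiply mapped reads were 37.4% and 25.5%. Ambiguous reads were 0 in the own-strand column, against 280135 in animal 1 and 149823 in animal 2 in the unstranded column.

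CPM was the own-strand count of a gene scaled to 1000000 counts over the 2202 genes. Log values were log2(CPM + 1). With 1 group no differential test was run. Counting-error calls were computed over all detected genes. Alternatives used TMM factors (edgeR 4.0.16) and DESeq2 1.42.0 size factors. All 2202 identifiers matched the annotation. Named by rule were the 12 most abundant members, the 8 with the largest absolute log2 ratio at a mean of 20 CPM or more, undetected members and the 2 leading genes of each comparison list. The rule also covered seed groups of 3 or more members and members with opposite-strand counts. There were none of either, seed groups being read from the matched arms. Members, lists and rules were chosen with earlier results of these data known.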

Additional observations from a re-analysis of the deposited data

Results flagged for a closer look

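Reads assigned to several places formed a separate entry that was not used for the members: 5063531 reads in animal 1 and 2585568 in animal 2. The entry gives no genes, and no source used here says whether such reads were also credited to genes, so the number that belongs to Mir411, Mir299a, Mir758, Mir376c, Mir376b and Mir487b, the members with long stretches in common with another hairpin, was not measured.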

How the results depend on the processing

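With the unstranded column the median CPM of members moved from 250.4 to 196 and the share of the 5 most abundant members from 54.7 to 57.8% of cluster counts, since 5 members fall to 0 there. When either animal is left out and the 5 are chosen anew, that last share ran from 54.7 to 57.8%, with the higher value in animal 2. The cluster's share of counts, 5.25%, became 6.15% with Mir139, the most abundant gene, out of the total, 4.57% without Mir411, 4.06% without the 6 members sharing 18 or more bases, and 2.45% with reads mapping to several places in the total, an alternative chosen after seeing the data. Without the 6 members the median was 403 CPM. TMM scaling moved the log2 ratio of the cluster from -0.11 to -0.086, and leaving out Mir487b, also chosen after seeing the data, to -0.00017. Thinning the deeper library lowered the members higher in animal 1 from 14 to 9 (1 draw), while 12 of the 13 higher in animal 2 kept that call, Mir495 lost it and Mir376a gained it. TMM scaling gave 15 and 11, DESeq2 size factors 15 and 13, and a 99% interval 10 and 11. No member changed direction beyond counting error under these 4 settings. A minimum of 22 shared bases left 2 members in place of 6. Leaving Mir132 out of the neuron list, chosen after seeing the data, turned its log2 ratio from -0.98 to 0.49. Another 44 of the values that describe the cluster as a whole moved by no more than 1 SD of the animals or their counting error, 0.05 for a correlation and 1.5 times for a count. For the cluster's share and the median CPM, leaving out 1 animal cannot move a mean of 2 by more than their SD. Those cases among the 44 were fixed in advance. The log2 ratios of 18 members, recomputed with other scaling, pseudocounts or the unstranded column, stayed inside their counting intervals in 87 of 87 cases. These settings could hardly give another outcome. Other scaling shifts all ratios alike by a small amount, and members with a ratio in the unstranded column have the same counts there. Mir299a, Mir409 and Mir539 give no ratio in the unstranded column, where they are at 0, and Mir1197 none at all. Depth limits Mir654 and Mir1197 most, with 2 counts or fewer, and among detected members Mir544, Mir758 and Mir494, with 54 or fewer.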
